A study of Stylophora pistillata with 24 samples.

Results

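Coral gene expression was followed here through 3 genes of the cryptochrome and photolyase family in *Stylophora pistillata*, a branching reef coral that broods its larvae (planulae). They are gene17590 and gene25041, both annotated cryptochrome-1-like (NCBI gene numbers 111336979 and 111345215), and gene15271, annotated deoxyribodipyrimidine photo-lyase-like isoform X3 (NCBI gene number 111334372). They were taken by identifier from a table of 33281 genes, and all 3 passed the filter on low counts that left 25735 genes for testing. Messenger RNA of whole-organism tissue was sequenced in 24 libraries, 3 in each of 8 groups. Deep planulae and deep adults came from the natural mesophotic reef at 45 m, and shallow planulae and shallow adults from the natural reef at 5 m. Juveniles were all of shallow origin and were kept on the reef in settlement chambers. They were collected at 8 or 60 days of age after growth at 45 m (translocated) or at 5 m (control). Juveniles settled from deep planulae are not analysed here. No group carried a mutation or a drug treatment. In planulae and adults the depth of origin and the depth of growth go together, and the labels do not state the hour of collection. They do not say either if libraries of 1 group came from different colonies or broods, so a p-value speaks only of the spread among these libraries, part of which may be technical.

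Photolyases are flavin-bearing enzymes that use the energy of blue and near-ultraviolet light to split the pyrimidine dimers that ultraviolet light makes in DNA. Cryptochromes descend from photolyases. In plants and insects they act as blue-light receptors, and in mammals as repressors within the circadian clock that hold back the CLOCK activator complex. In reef corals, cryptochrome transcripts have been studied as part of the daily clock and of responses to moonlight, with *Acropora* as the usual example. Seawater removes ultraviolet and red light first, so that light on a mesophotic reef is dimmer and bluer than near the surface. Which of these activities the proteins of gene17590 and gene25041 have is not given by their names.

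Library totals were 13.57 M to 35.78 M counts with a median of 24.32 M (M, 1e6 counts). Raw counts of the members in single libraries ran from 3456 to 22516 for gene17590, from 490 to 3047 for gene25041 and from 429 to 4260 for gene15271, so all were measured well above the floor of 3 counts. Levels are given as counts per 1e6 counts (CPM) after scaling by the trimmed mean of M-values, as mean ± SD. The scaling factors of shallow planulae, 0.558 to 0.626, lay below those of deep planulae, 0.676 to 0.909, and of the other libraries, 0.895 to 1.36. Deep adult replicate 3 had the smallest total and stood apart from the other deep adults on the first principal component, and shallow planula replicate 1 lay beside the deep planulae there. Bulk libraries cannot tell fewer cells of a type from less RNA per cell.

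The 3 genes did not move as one over the depth gradient. The cryptochrome gene25041 was lower in the deep or translocated libraries by 2.33-fold in planulae, 2.65-fold in adults and 2.42-fold in 60-day juveniles, and all 3 differences passed the test. The photolyase gene15271 fell 2.12-fold in deep adults and 3.24-fold in translocated 60-day juveniles. The cryptochrome gene17590 fell 1.86-fold in deep adults. Its values in deep planulae and in translocated juveniles of both ages lay above those of their shallow counterparts. None of these rises passed the test (adjusted p 0.337 in planulae, 0.284 at 8 days and 0.15 at 60 days). Groups lay apart there, in 1 direction or the other, for 39.6%, 17.8% and 20.9% of all genes tested. A gene counts as called here when its adjusted p is below 0.05 (edgeR's quasi-likelihood test, Benjamini-Hochberg over all 25735 genes), and this test is meant by every adjusted p given without another method.

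**Figure D1:**
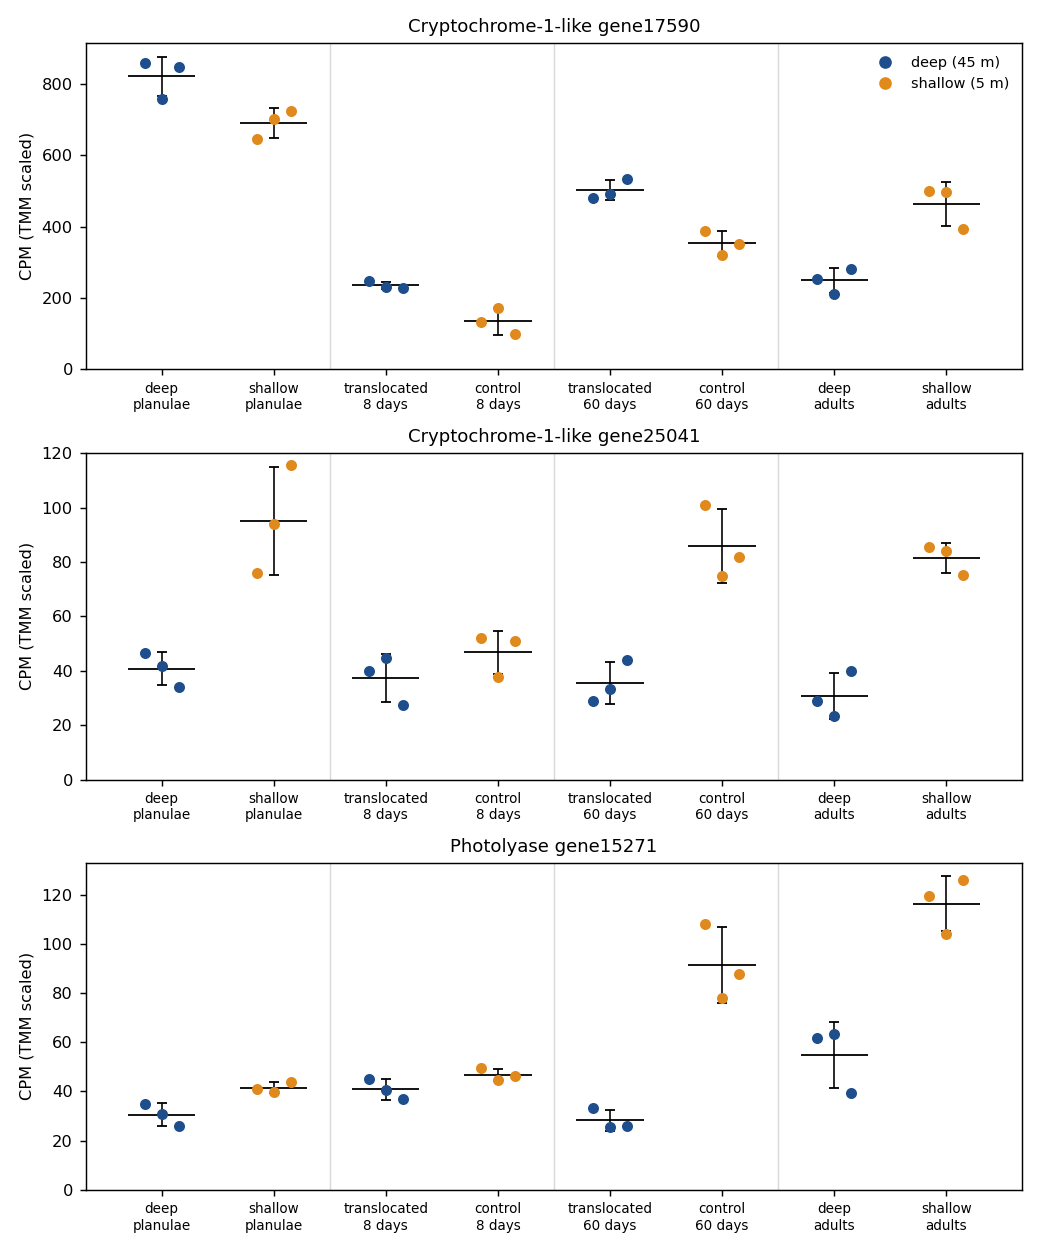
Levels of the 3 genes in every library (scaled CPM, linear axis), 1 panel per gene, with points for single libraries, lines for group means and bars for the SD of 3 libraries. The groups run by life stage, with the deep or translocated group left of its shallow or control counterpart. gene25041 sat at 23.4 to 46.4 CPM in all 12 deep and translocated libraries, overlapping with control 8-day juveniles at 37.7 to 52.0 CPM. All shallow planulae, control 60-day juveniles and shallow adults lay at 74.8 to 116 CPM.

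The cryptochrome gene25041 had 46.4, 41.8 and 34.2 CPM in the 3 deep planula libraries, against 75.8, 93.9 and 116 CPM in the 3 shallow planula libraries. All deep libraries lay below all shallow ones, as they did in 1 direction or the other for 39.6% of all genes tested. The log2 fold change was −1.22 (SE 0.23, adjusted p = 0.00124), in a comparison that called 22.9% of genes. In adults, gene25041 had 29.0, 23.4 and 39.8 CPM in deep libraries, against 85.4, 84.1 and 75.1 CPM in shallow libraries. Again no deep value reached a shallow one, and gene25041 fell by 1.41 on the log2 scale (SE 0.23, adjusted p = 0.00086), where 8.11% of genes were called and 25.2% did not overlap. Deep adult replicate 3 held the highest of the 3 deep values, and leaving out any 1 adult library kept the adjusted p between 0.00063 and 0.00577.

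In juveniles grown for 60 days, gene25041 had 28.9, 33.4 and 44.2 CPM in translocated libraries, against 101, 74.8 and 81.95 CPM in control libraries. The groups were apart, and gene25041 fell by 1.28 on the log2 scale in translocated juveniles (SE 0.23, adjusted p = 0.00555), where 2.36% of genes were called and 20.9% did not overlap. Fitted on these 2 groups alone, the adjusted p was 0.094. At 8 days, gene25041 had 39.9, 44.7 and 27.5 CPM in translocated libraries, against 52.0, 37.7 and 50.9 CPM in control libraries. These values overlapped, and the log2 fold change of −0.32 (95% interval −0.81 to 0.16) did not pass the test (adjusted p = 0.949), in a comparison that called 0.00389% of genes. The 8-day controls held 46.9 ± 7.96 CPM, near the level of the translocated animals at both ages, whereas the 60-day controls held 86.0 ± 13.6 CPM.

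The photolyase gene15271 had 34.9, 30.9 and 25.8 CPM in deep planula libraries, against 40.8, 39.8 and 43.9 CPM in shallow planula libraries. The deep values all lay below the shallow ones, but the log2 fold change of −0.44 (95% interval −0.82 to −0.06) did not pass the test (adjusted p = 0.0845). DESeq2's Wald test put it at −0.48 with an adjusted p of 0.0344. Scaling by library totals alone put it at 0.03, while that scaling moved the median of all genes to 0.54. The call in planulae thus depends on the fit, and the direction on the scaling.

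In adults, gene15271 had 61.8, 63.4 and 39.3 CPM in deep libraries, against 119, 104 and 126 CPM in shallow libraries. No deep value reached a shallow one, and gene15271 fell by 1.08 on the log2 scale (SE 0.18, adjusted p = 0.000908). Deep adult replicate 3, at 39.3 CPM, was the lowest of its group for the photolyase while it was the highest for both cryptochromes, and without it the adult fold changes of all 3 genes passed the test.

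The largest change of any member across depth was that of gene15271 at 60 days. The translocated libraries had 33.1, 25.5 and 25.99 CPM, against 108, 78.1 and 87.9 CPM in the control libraries. The highest translocated value was below the lowest control value, and gene15271 fell by 1.70 on the log2 scale (SE 0.18, 95% interval −2.08 to −1.31, adjusted p = 5.06e-05). By p it was ranked 9 of the 25735 genes in that comparison. Fitted on these groups alone it stood at −1.65 and missed the threshold (adjusted p = 0.0513). At 8 days gene15271 had 45.1, 40.5 and 36.8 CPM in translocated libraries, against 49.5, 44.7 and 46.2 CPM in control libraries. These overlapped, with a log2 fold change of −0.20 (95% interval −0.57 to 0.18, adjusted p = 0.958). The translocation effect at 60 days minus that at 8 days was −1.50 (SE 0.26, adjusted p = 0.0324), a difference that 0.0777% of genes passed. It passed without control 60-day replicate 2 or translocated 60-day replicate 1, and missed the threshold without any 1 of the other 10 juvenile libraries (adjusted p 0.0586 to 0.112). It also missed it on library totals alone (−1.61, adjusted p = 0.136) and with juveniles fitted alone (−1.46, adjusted p = 0.0605).

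The cryptochrome gene17590 was the most abundant of the 3, and outside the adult its values lay on the other side from those of gene25041. In deep planula libraries it had 857, 758 and 848 CPM, against 644, 702 and 725 CPM in shallow planula libraries. All 3 deep values lay above all 3 shallow ones, but the log2 fold change of 0.25 (95% interval −0.12 to 0.62) did not pass the test (adjusted p = 0.337). Scaled by library totals alone it was 0.71 with an adjusted p of 0.0108, while that scaling moved the median of all genes to 0.54. In adults, gene17590 had 254, 212 and 281 CPM in deep libraries, against 499.9, 496 and 393 CPM in shallow libraries. The deep values were all below the shallow ones, and gene17590 fell by 0.89 on the log2 scale (SE 0.18, adjusted p = 0.00438). Fitted on the adults alone, the calls of gene17590 (adjusted p = 0.119) and gene15271 (adjusted p = 0.081) were lost, while that of gene25041 stayed (adjusted p = 0.0475).

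The depth effect of gene17590 in adults minus that in planulae was −1.15 (SE 0.25, 95% interval −1.68 to −0.61, adjusted p = 0.00765), in a test that called 12.9% of genes. It passed with any 1 of the 12 libraries left out and under every other setting tried, and was −1.82 on library totals alone. The same difference was −0.19 for gene25041 (95% interval −0.87 to 0.49, adjusted p = 0.751) and −0.64 for gene15271 (95% interval −1.17 to −0.11, adjusted p = 0.102). The difference of gene17590 was the one that passed. With libraries scaled by their totals alone, those of gene25041 (−0.91, adjusted p = 0.0427) and gene15271 (−1.26, adjusted p = 0.0203) passed too.

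In juveniles at 8 days, gene17590 had 247, 229.7 and 228 CPM in translocated libraries, against 132, 172.5 and 98.0 CPM in control libraries. The groups were apart, as for 17.8% of genes, and the log2 fold change was 0.81 (95% interval 0.43 to 1.18). It was ranked 22 of 25735 by p, yet its adjusted p was 0.284. DESeq2, which called 95 genes there where edgeR called 1, gave gene17590 an adjusted p of 0.00247. At 60 days it had 479, 492 and 533 CPM in translocated libraries, against 388, 319.6 and 351 CPM in control libraries. The translocated values were again all above the control ones, with a log2 fold change of 0.51 (95% interval 0.13 to 0.88) and an adjusted p of 0.15, or 0.0216 by DESeq2.

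Averaged over both ages, a comparison added after these values were seen, the translocation effect on gene17590 was 0.66 on the log2 scale (SE 0.13, adjusted p = 0.00968). The matching values were −0.80 for gene25041 (SE 0.16, adjusted p = 0.0142) and −0.95 for gene15271 (SE 0.13, adjusted p = 0.000466). All 3 genes passed, where 1.85% of all genes did. The calls of gene17590 and gene15271 held under every setting tried, and that of gene25041 was lost without translocated 8-day replicate 3 (−0.71, adjusted p = 0.052). A call of this mean does not show an effect at each age. At 8 days alone none of the 3 genes passed in the fit reported (0.81 for gene17590, −0.32 for gene25041 and −0.20 for gene15271).

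**Figure D2:**
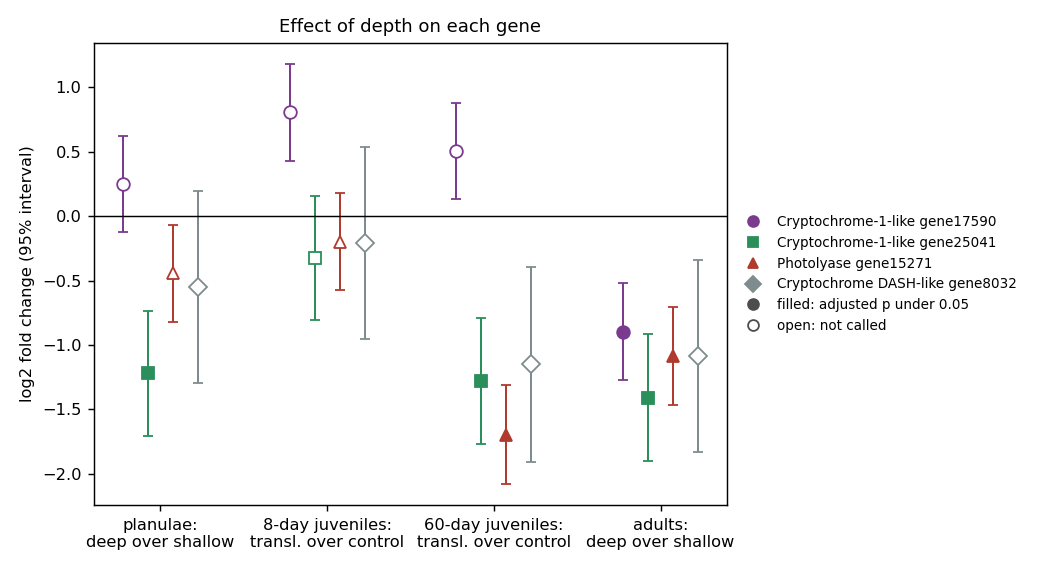
Log2 fold change of the 3 genes and of the cryptochrome DASH-like gene8032 in the 4 depth comparisons (deep over shallow, or translocated over control), with 95% intervals and filled points where the adjusted p was below 0.05. gene25041 and gene15271 lay below 0 in all 4 comparisons, and gene17590 lay below 0 in adults (−0.89) and above 0 in the other 3.

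Within 1 library the ratio of the cryptochromes needs no scaling between libraries. Per base of gene length (2564 bases for gene17590 and 1988 bases for gene25041), this ratio of gene17590 to gene25041 was 15.9 ± 2.91 in deep planulae and 5.75 ± 0.864 in shallow planulae. It was 5.07 ± 1.24 in translocated and 2.34 ± 1.08 in control juveniles at 8 days, and 11.2 ± 1.76 in translocated and 3.20 ± 0.195 in control juveniles at 60 days. In adults it was 6.43 ± 0.836 at 45 m and 4.39 ± 0.289 at 5 m (SD, n = 3 libraries in each group). At each of the 4 stages the lowest deep or translocated library lay above the highest shallow or control one, most narrowly at 8 days (3.98 against 3.55). The ratio was chosen after the levels were seen and is given without a test.

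The per-length ratio of the photolyase to gene25041 did not separate the depths in this way. It was 0.401 ± 0.00409 in deep planulae and 0.240 ± 0.0438 in shallow planulae, without overlap. In 60-day juveniles it was 0.446 ± 0.153 in translocated and 0.569 ± 0.00853 in control libraries, and in adults 1.04 ± 0.469 in deep and 0.770 ± 0.119 in shallow libraries, with overlap in both. The ratio of gene17590 to the photolyase did separate them before the adult stage, at 35.4 to 47.5 in deep and 22.8 to 25.5 in shallow planulae, 7.94 to 8.96 in translocated and 3.07 to 5.58 in control 8-day juveniles, and 20.9 to 29.7 in translocated and 5.20 to 5.92 in control 60-day juveniles. In adults it overlapped, at 4.84 to 10.3 in deep and 4.52 to 6.91 in shallow libraries.

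**Figure D3:**
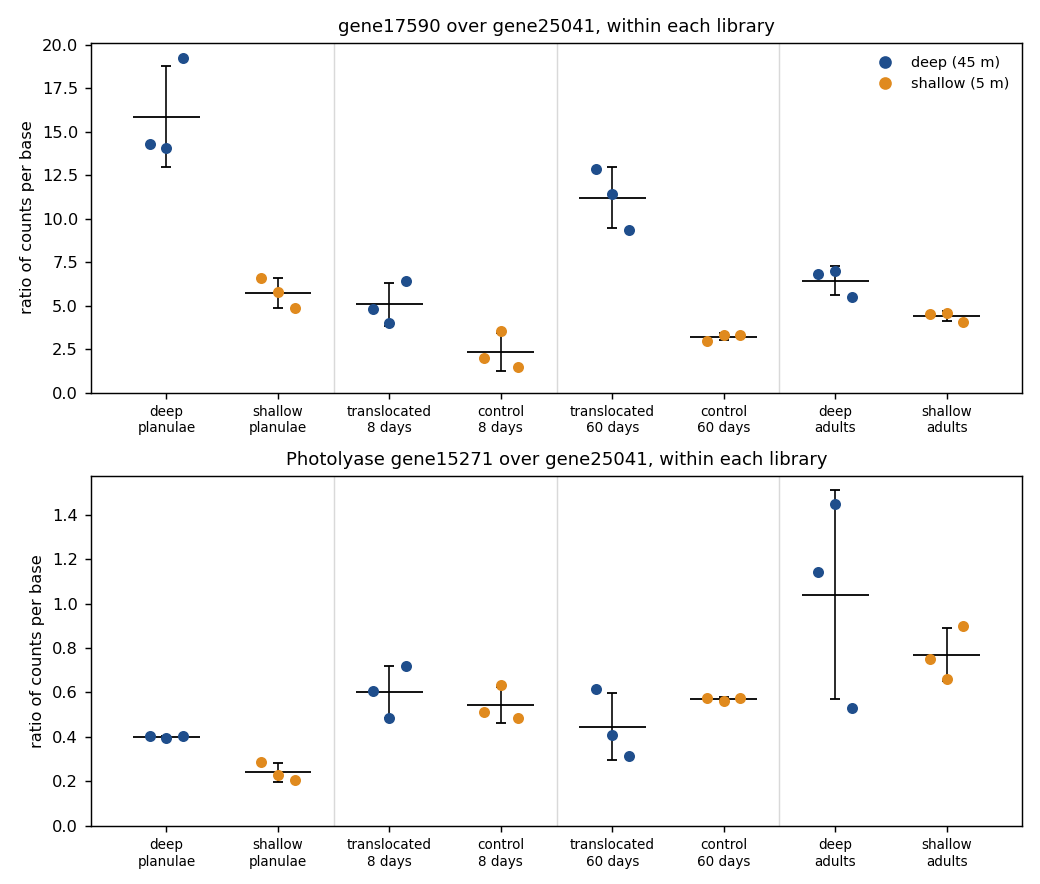
Per-length ratio of gene17590 to gene25041 and of gene15271 to gene25041 inside each library (linear axis), with points for single libraries, lines for group means and bars for the SD, deep or translocated groups left of their counterparts. The ratio of the cryptochromes lay at 14.1 to 19.2 in deep planulae and at 4.86 to 6.59 in shallow planulae.

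The steps of the life cycle moved the 3 genes differently. From the planula to the settled juvenile, gene17590 fell 5.14-fold in control 8-day juveniles over shallow planulae (log2 fold change −2.36, SE 0.19, adjusted p = 1.86e-08) and 2.94-fold in translocated 8-day juveniles over shallow planulae (−1.55, SE 0.18, adjusted p = 1.83e-06). gene25041 fell by 1.02 (adjusted p = 0.00158) and 1.35 (adjusted p = 0.000128) on the log2 scale in the same steps. gene15271 had log2 fold changes of 0.17 (adjusted p = 0.48) and −0.02 (adjusted p = 0.933). With libraries scaled by their totals alone, which moved the median of all genes to 1.14 and 1.13, gene17590 fell by 1.36 and 0.59 and kept both calls, gene25041 (−0.024 and −0.37) lost both, and gene15271 (1.16 and 0.94) passed in both. These steps called 39% and 41.6% of genes, and they also take the animals from the natural reef into chambers, which cannot be told apart from settlement and age.

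Between 8 and 60 days all 3 genes rose in control juveniles, where 8.51% of genes were called. The log2 fold changes of 60-day over 8-day controls were 1.39 for gene17590 (SE 0.18, adjusted p = 7.32e-05), 0.88 for gene25041 (SE 0.23, adjusted p = 0.0218) and 0.96 for gene15271 (SE 0.18, adjusted p = 0.00195). The call of gene25041 was lost without control 8-day replicate 2 or without control 60-day replicate 1 or 3 (adjusted p 0.119, 0.103 and 0.0532). In translocated juveniles, where 7.41% of genes were called, gene17590 rose by 1.09 (SE 0.18, adjusted p = 0.00126). There gene25041 had −0.08 (adjusted p = 0.898) and gene15271 −0.53 (adjusted p = 0.082), which DESeq2 called (adjusted p = 0.0346).

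From the planula to the adult, the photolyase gene15271 was higher and gene17590 lower in the adult at both depths. In deep adults over deep planulae the log2 fold changes were 0.85 for gene15271 (SE 0.18, adjusted p = 0.000943) and −1.72 for gene17590 (SE 0.18, adjusted p = 5.52e-07), where 44.6% of genes were called. In shallow adults over shallow planulae they were 1.49 for gene15271 (SE 0.18, adjusted p = 2.14e-06) and −0.58 for gene17590 (SE 0.18, adjusted p = 0.011), where 54.3% were called. The last of these was lost without shallow adult replicate 3 (−0.47, adjusted p = 0.0609) and turned to 0.55 when libraries were scaled by their totals alone. gene25041 was not called in either, at −0.41 in deep adults (adjusted p = 0.158) and −0.22 in shallow adults (adjusted p = 0.428), and it was called in the deep pair without deep adult replicate 3 (−0.64, adjusted p = 0.0398). On library totals alone, which moved the median of all genes to 1.46 in the shallow pair, gene25041 was called there with the opposite sign (0.91, adjusted p = 0.00131) and gene15271 stood at 2.61. Shallow adults and control 60-day juveniles, which differed in 31.4% of genes, gave no call for gene17590 (0.39), gene25041 (−0.08) or gene15271 (0.35) in the fit reported. DESeq2 called gene17590 (0.49) and gene15271 (0.45), and edgeR on library totals alone called gene17590 (0.57, adjusted p = 0.0338).

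Summed levels of several marker lists moved with life stage in the same libraries, and that of skeletal matrix and carbonic anhydrase names also with depth in planulae. The summed level of 74 genes of motile cilia was 11685 to 16144 CPM in deep planulae and 10708 to 15239 CPM in shallow planulae, and 2334 to 4594 CPM over all juvenile and adult libraries. A list of 95 genes was named for skeletal matrix proteins, galaxins or carbonic anhydrases. Their summed level was 9147 to 13673 CPM in deep planulae and 15602 to 16602 CPM in shallow planulae. It was 4695 to 11663 CPM in juveniles and 2764 to 4818 CPM in adults. Since it was highest in shallow planulae, this sum is not read here as a measure of skeleton-forming cells. The 2 vitellogenins of egg yolk summed to 4.53 to 72.8 CPM in planulae and to 923 to 5489 CPM in all other libraries, and the single named stinging-cell gene was at 0 to 2.60 CPM throughout. The sums of the 95 genes did not overlap between deep and shallow planulae, and were lower in deep planulae, as gene25041 was. The part of these markers in the differences of the 3 genes between stages, or between depths, was not tested.

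Ordered by mean level, gene17590 was highest in deep planulae, then shallow planulae, translocated 60-day juveniles, shallow adults, control 60-day juveniles, deep adults, translocated 8-day juveniles and control 8-day juveniles. Of its 7 neighbouring pairs, shallow planulae over translocated 60-day juveniles (0.46, adjusted p = 0.0453) and control 60-day juveniles over deep adults (0.50, adjusted p = 0.0392) passed. The 7 pairs called 22.9%, 41.9%, 24.4%, 31.4%, 31.3%, 24.9% and 0.00389% of all genes, from the highest pair to the lowest. For gene25041 the order was shallow planulae, control 60-day juveniles, shallow adults, control 8-day juveniles, deep planulae, translocated 8-day juveniles, translocated 60-day juveniles and deep adults. Its one step past the test was shallow adults over control 8-day juveniles (0.80, adjusted p = 0.0143), with shallow planulae, control 60-day juveniles and shallow adults above it and the other 5 groups below it. Its pairs called 40.9%, 31.4%, 29.2%, 36.6%, 36.2%, 7.41% and 23.8% of all genes in the same sense. For gene15271 the order was shallow adults, control 60-day juveniles, deep adults, control 8-day juveniles, shallow planulae, translocated 8-day juveniles, deep planulae and translocated 60-day juveniles. Control 60-day juveniles over deep adults (0.74, adjusted p = 0.00495) was its one neighbouring pair past the test, and its pairs called 31.4%, 31.3%, 26.4%, 39%, 41.6%, 36.2% and 37.9% of all genes. The number of neighbouring pairs called ranged over 0 to 3, 1 to 3 and 0 to 4 for the 3 genes in this order under the other settings.

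Per kilobase of gene length, the mean level of gene17590 ran from 52.4 CPM per kilobase in control 8-day juveniles to 320.2 in deep planulae. That of gene25041 ran from 15.5 in deep adults to 47.8 in shallow planulae, and that of gene15271 from 7.61 in translocated 60-day juveniles to 31.4 in shallow adults. gene17590 was thus above both other genes in every group on this scale. gene15271 overlaps 1 other gene in the RefSeq annotation of the species, and whether counting used strand is not given in the sources used here, so its counts may include reads of that neighbour.

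A relative with an old branch of its own, cryptochrome DASH, was also in the table (gene8032), and proteins of this branch repair single-stranded DNA in plants and bacteria. It was the least abundant of the family, at 12.5 ± 3.63 CPM in deep planulae and 18.3 ± 1.84 CPM in shallow planulae. In adults it had 13.8 ± 7.16 CPM at 45 m and 29.2 ± 7.76 CPM at 5 m, and in 60-day juveniles 4.78 ± 1.72 CPM in translocated and 10.6 ± 3.44 CPM in control animals. At 8 days it had 5.53 ± 1.401 CPM in translocated and 6.39 ± 0.230 CPM in control animals. Its 4 log2 fold changes were −0.55, −1.08, −1.15 and −0.21 in this order, and none passed the test (adjusted p 0.285, 0.0671, 0.103 and 0.979). DESeq2 called it in adults (−1.07, adjusted p = 0.0291), as did edgeR without deep adult replicate 2 (−1.57, adjusted p = 0.0129). The authors' own deposited DESeq2 values for adults were −1.06 with an adjusted p of 0.0752, above the threshold.

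Over the 24 libraries, Pearson's r of log2 CPM was 0.54 between gene25041 and gene15271, 0.31 between gene17590 and gene25041 and −0.19 between gene17590 and gene15271. Within stages, gene25041 and gene15271 had r of 0.94 over 6 planula, 0.88 over 12 juvenile and 0.77 over 6 adult libraries. gene17590 and gene25041 had r of −0.72, 0.01 and 0.98 over the same libraries. These are descriptions, since libraries of 1 stage share its depth groups.

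Among 14888 genes with an informative name, those with the highest r to gene17590 over the 24 libraries were a polyamine oxidase 1-like gene (gene19933, r = 0.90), a sacsin-like gene (gene12999, 0.90), dynein beta chain of cilia (gene18618, 0.89), axonemal dynein heavy chain 10 (gene4675, 0.89) and a histamine H2 receptor-like gene (gene17636, 0.88). Within the 6 planula libraries alone their r ran from −0.29 to 0.82, and within the 6 adult libraries from 0.28 to 0.93. The 5 nearest to gene25041 were pyridoxine-5'-phosphate oxidase-like gene24191 (0.92), SDR39U1-like gene3188 (0.90), AFG1-like ATPase gene2395 (0.89), the ubiquinol-cytochrome-c reductase assembly factor gene21919 (0.88) and molybdenum cofactor sulfurase-like gene9800 (0.85). For these the r within planulae, juveniles and adults stayed between 0.761 and 0.996. They were picked for a high r over the same libraries, and each stage holds both depths, so these values are descriptions. Nearest to gene15271 was endonuclease 8-like 1 (gene7321, 0.88), whose relatives cut oxidised bases out of DNA. Next came LONRF3-like gene4513 (0.86), DIS3-like exonuclease 2 (gene7303, 0.85), cereblon-like gene15730 (0.84) and ABHD11-like gene18798 (0.83). For these 5 the r within planulae, juveniles and adults ran from 0.504 to 0.969.

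Product names of animal clock genes and some of their regulators, none of them ARNTL or period, gave a list of 11 genes, all of them tested. In deep planulae 5 were higher and 0 lower than in shallow planulae, where 12.5% of all genes were called higher. The list's median log2 fold change was 0.88, beside 0.09 over all genes tested. A CLOCK-like gene (gene4863, the DNA-binding activator of the animal clock) had 50.9 ± 14.6 CPM in deep planulae and 27.5 ± 4.07 CPM in shallow planulae (0.89, adjusted p = 0.0296). The CLOCK-like gene786 had 71.1 ± 10.5 CPM in deep and 70.0 ± 7.68 CPM in shallow planulae (0.02, adjusted p = 0.954). The CLOCK-like gene3995 was not called either (1.02, adjusted p = 0.0909). A BHLHE40-like gene (gene8345, a repressor that acts on the same DNA elements in mammals) had 428 ± 36.7 CPM in deep planulae and 232 ± 5.75 CPM in shallow planulae (0.88, adjusted p = 0.000978). The timeless homolog gene9837 (1.80, adjusted p = 0.004) and the TIMELESS-interacting gene14777 (2.99, adjusted p = 0.00265), which in mammals also guard the DNA replication fork, were higher too. The level of gene14777 was low, at 6.06 ± 3.68 CPM in deep and 0.769 ± 0.630 CPM in shallow planulae. The last of the 5, named after its values were seen, was the thyrotroph embryonic factor-like gene10071 (0.75, adjusted p = 0.0458). The count was 3 without shallow planula replicate 1, 2 or 3 or deep planula replicate 1 or 2, and 10 on library totals alone, where the median of all genes was 0.54.

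In translocated 60-day juveniles 4 clock genes were higher and 1 lower, where 1.08% of genes were called higher and 1.28% lower, and the median was 0.28 beside −0.01 over all genes tested. The BHLHE40-like gene8345 had 262 ± 39.3 CPM in translocated and 64.3 ± 7.32 CPM in control juveniles (2.03, adjusted p = 5.02e-06), and its like-named gene25223 had 238 ± 21.3 CPM in translocated and 77.4 ± 14.96 CPM in control juveniles (1.62, adjusted p = 0.000231). A pair of genes named for thyrotroph embryonic factor, a PAR bZIP activator whose mammalian form is an output of the clock, rose by 1.75 (gene10071, adjusted p = 0.00118) and 2.20 (gene1874, adjusted p = 0.0095). The level of gene1874 was low, at 9.11 ± 3.66 CPM in translocated and 2.01 ± 1.42 CPM in control juveniles. The 1 clock gene called lower, named after its values were seen, was the CLOCK-like gene4863 (−1.13, adjusted p = 0.0459). It had 2.93 ± 0.910 CPM in translocated and 6.43 ± 0.574 CPM in control juveniles. Its call was lost with any 1 of the 6 libraries left out and in every other edgeR fit tried. The CLOCK-like gene786 (0.48, adjusted p = 0.201) and gene3995 (−0.30, adjusted p = 0.781) were not called. Fitted on these groups alone, 1 clock gene was higher and 0 lower. At 8 days gene8345 was the 1 gene called among all tested, with 32.0 ± 4.06 CPM in translocated and 12.7 ± 1.30 CPM in control juveniles (1.33, adjusted p = 0.00346). That call was lost without control 8-day replicate 1 or 3, on library totals alone and with these groups fitted alone, while DESeq2 called 3 clock genes there, all higher.

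In deep adults 2 clock genes were higher and 0 lower, where 3.77% of genes were called higher, with a median of 0.07 beside −0.00043 over all genes tested. They were the CLOCK-like gene4863 (2.36, adjusted p = 0.000121) and gene1874 (1.38, adjusted p = 0.0416). The CLOCK-like gene4863 was low, with 2.91 ± 0.393 CPM in deep and 0.565 ± 0.230 CPM in shallow adults. The other, gene1874, had 36.2 ± 8.08 CPM in deep and 13.9 ± 2.11 CPM in shallow adults. The CLOCK-like gene786 (−0.19, adjusted p = 0.593) and gene3995 (0.15, adjusted p = 0.869) were not called. The BHLHE40-like gene8345 (−0.42, adjusted p = 0.123) and gene25223 (−0.64, adjusted p = 0.0528) lay below 0 in adults and were not called. The count was 1 without deep adult replicate 1 or 3 or any 1 shallow adult library, on library totals alone, with a replicate block and with adults fitted alone. DESeq2 called 2 higher and 1 lower.

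Genes of light-independent DNA repair, mainly nucleotide excision repair of ultraviolet damage, stood beside the photolyase as a list of 18 genes, all tested. The list also holds gene22882, named for a methyltransferase that takes alkyl groups off guanine, which is not repair of ultraviolet damage. In translocated 60-day juveniles 0 were higher and 5 lower than in controls, where 1.08% of all genes were called higher and 1.28% lower. The median of the list was −0.45 beside −0.01 over all genes tested. XPC-like gene6103, whose mammalian form finds the damage, had 11.2 ± 1.56 CPM in translocated and 47.6 ± 14.6 CPM in control juveniles (−2.09, adjusted p = 0.00836). ERCC-6-like gene14270, whose mammalian form couples repair to transcription, fell by 0.83 (adjusted p = 0.0224), while the like-named gene18820 was not called (0.09, adjusted p = 0.876). The XPD helicase gene23475 fell by 0.60 (adjusted p = 0.0153) and the MMS19 homolog gene19378 by 0.99 (adjusted p = 0.0182). The last of the 5, named after its values were seen, was gene13737, like the DNA polymerase eta that copies past pyrimidine dimers (−0.99, adjusted p = 0.044). The count of 5 was 2 without control replicate 1, 3 without control replicate 3, 3 without translocated replicate 1 and 1 without translocated replicate 2, and 0 when these groups were fitted alone.

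In deep adults 0 repair genes were higher and 1 was lower, against 4.33% of all genes called lower. It was gene14270, with 33.2 ± 2.81 CPM in deep and 57.4 ± 9.92 CPM in shallow adults (−0.79, adjusted p = 0.013). The like-named gene18820 was not called (0.10, adjusted p = 0.810). The count of lower genes was 0 without shallow adult replicate 1 or with adults fitted alone, 2 without deep adult replicate 2 and 3 by DESeq2. In deep planulae 3 were higher and 2 lower, where 12.5% of all genes were called higher and 10.4% lower, so that both counts lay near those shares, and the median was −0.05 beside 0.09 over all genes tested. On library totals alone 5 were higher and 1 lower. XPC-like gene6103 (1.44, adjusted p = 0.0151) and XPD gene23475 (0.59, adjusted p = 0.00269) were among the higher. The XPB helicase gene7645 (−0.60, adjusted p = 0.0113) and the methyltransferase gene22882 (−1.33, adjusted p = 0.00165) were lower. The other higher gene, named after its values were seen, was ERCC-6-like 2 (gene20896, 1.16, adjusted p = 0.0296). Of the 3 higher calls 1 was left without shallow planula replicate 2 or with planulae fitted alone, and of the 2 lower calls 1 was left without deep planula replicate 2. At 8 days 0 of the 18 were called in either direction by edgeR or DESeq2, and 0 had an unadjusted p under 0.05, with a median of −0.12 beside −0.03 over all genes tested.

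**Figure D4:**
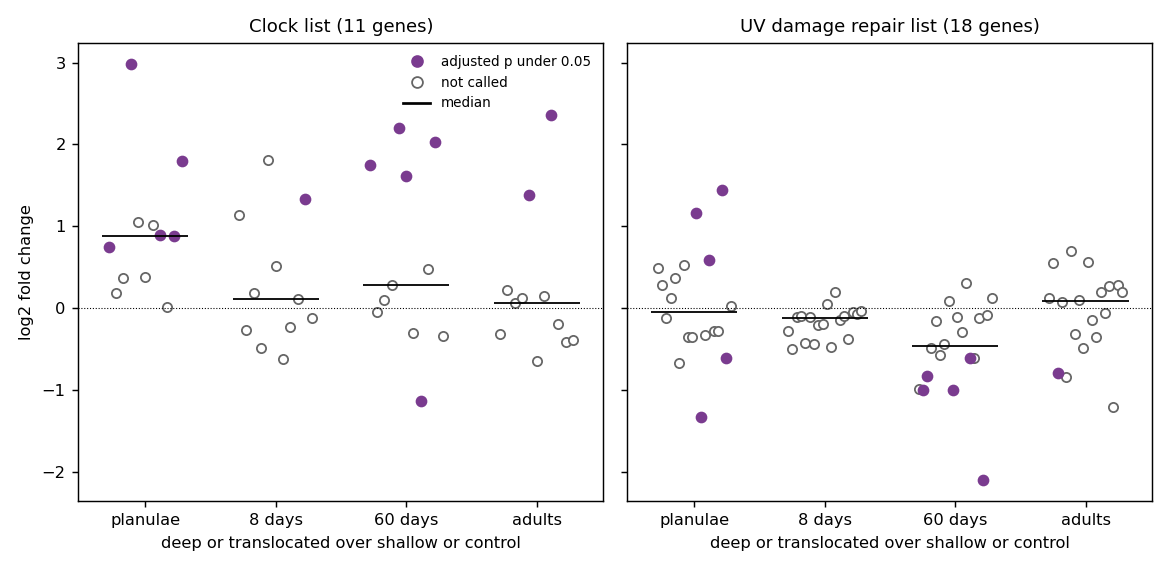
Log2 fold changes of the 11 clock genes and the 18 genes of the repair list in the 4 depth comparisons, with 1 point per gene, filled where the adjusted p was below 0.05, and a line at the median of each list. In 60-day juveniles the clock list had 4 filled points above 0 and 1 below, and the repair list 5 filled points below 0.

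The authors' deposited table gives its own adult comparison from DESeq2. For deep over shallow adults, the authors' deposited table has log2 fold changes of −0.87 for gene17590, −1.38 for gene25041 and −1.06 for gene15271, with adjusted p-values of 6.68e-06, 3.44e-06 and 4.94e-05. Each differs from the value computed here by less than its SE.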

How the data were processed

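Poly(A) RNA was sequenced with molecular identifiers added before amplification and input RNA of an integrity number above 7.7, per the labels' protocols. The authors deposited raw counts per gene, and a second deposited table gives product names, gene lengths and DESeq2 output (log2 fold change, adjusted p-value) of the authors, per the file headers. FastQC, MultiQC, cutadapt, Trimmomatic and DESeq2 are named in the submitters' processing notes. The aligner, the counter, the build, the strand setting and what was done with the identifiers are not stated in the sources used here, so shared reads and amplification cannot be judged. The 24 FPM and FPKM columns were not used, and no coordinates are printed because the build is not known.

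The tools were edgeR 4.0.16 and limma 3.58.1 under R 4.3.3. Genes passing filterByExpr (25735) were scaled by TMM factors and fitted with 8 group means (quasi-likelihood, 16 residual degrees of freedom). Contrasts were tested 2-sided and p-values adjusted by Benjamini-Hochberg over all genes tested at a threshold of 0.05. SE is the absolute log2 fold change over the square root of the F statistic. Alternatives were other scaling, no filter, DESeq2 1.42.0, only the groups compared, a replicate block and each library left out. The script was tested on simulated counts. Patterns were compared on log2 CPM with a prior count of 2.

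The members, the gene lists and the alternatives were chosen with earlier results of these data known. Named were the members, cryptochrome DASH, up to 4 called genes of each list with the smallest p in each depth comparison and the 5 genes most like each member. Lists came from words in product names, which are automatic homology names. The labels do not say if replicate numbers pair libraries across groups, and the fit reported took no pairing. Deviations from the group means correlated at −0.16 to 0.26 between same-numbered libraries of compared groups.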

Additional observations from a re-analysis of the deposited data

Results flagged for a closer look

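The effect of depth on the cryptochrome gene17590 differed between adults and planulae. Deep over shallow was −0.89 on the log2 scale in adults and 0.25 in planulae, and the interaction test put the difference at −1.15 (SE 0.25, adjusted p = 0.00765, edgeR quasi-likelihood test with Benjamini-Hochberg adjustment). All 3 deep adult libraries lay below all 3 shallow adult libraries, and 25.2% of all genes did not overlap there. All 3 deep planula libraries lay above all 3 shallow planula libraries, where 39.6% of genes did not overlap. The rise in planulae was not called by itself (adjusted p = 0.337). The fall in adults was called, but not with adults fitted alone (adjusted p = 0.119).

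The effect of translocation on the photolyase gene15271 differed between the ages. Translocated over control was −1.70 at 60 days and −0.20 at 8 days, and the interaction test put the difference at −1.50 (SE 0.26, adjusted p = 0.0324, same test). The libraries were apart at 60 days, as for 20.9% of all genes tested, and overlapped at 8 days. The call was lost without any 1 of 10 of the 12 juvenile libraries, on library totals alone (−1.61) and with juveniles fitted alone (−1.46).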

How the results depend on the processing

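Of 558 values of the 3 genes under the alternatives, 510 kept their direction and their side of the threshold, 23 lost the call, 12 gained one and 13 changed sign. The causes were not tested. With edgeR on DESeq2's size factors, gene25041 in shallow adults over control 60-day juveniles was 0.022. Library totals alone shifted the median of all genes to 0.54 in planulae, −0.18 in adults, −0.15 at 60 days, 1.14 in control 8-day juveniles over shallow planulae, 1.13 in translocated 8-day juveniles over shallow planulae and 1.46 in shallow adults over shallow planulae, and higher genes made up 83.3% of calls in planulae (54.5% with scaling), 34.6% in adults (46.5%) and 25.985% at 60 days (45.7%). Under that setting gene17590 passed in planulae (0.71) and gene15271 was 0.034. For control 8-day juveniles over shallow planulae, gene25041 lost its call (−0.024) and gene15271 passed (1.16), as for translocated ones (−0.37 and 0.94). Shallow adults over control 60-day juveniles gave 0.57 for gene17590, now called, and 0.10 for gene25041. Shallow adults over shallow planulae gave 0.55 and 0.91 for the same genes, both called with the sign turned. Deep adults over deep planulae gave 0.0019 for gene25041. The adult minus planula difference was −0.91 for gene25041 and −1.26 for gene15271, both now called, and the 60-day minus 8-day difference of gene15271 (−1.61) lost its call. DESeq2 called gene15271 in planulae (−0.48), gene17590 at 8 days (0.86) and 60 days (0.60), gene15271 in translocated 60-day over 8-day juveniles (−0.53) and, in shallow adults over control 60-day juveniles, gene17590 (0.49) and gene15271 (0.45), where gene25041 was 0.022. Fitted on the groups compared alone, no call was made for gene17590 (−0.87) and gene15271 (−1.07) in adults, for gene25041 (−1.23) and gene15271 (−1.65) at 60 days, or for gene15271 between the ages (−1.46).

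With 1 library left out, the changed results ranged over 0.74 to 0.96 for gene25041 in control 60-day over 8-day juveniles, −1.63 to −1.36 for gene15271 between the ages, −0.90 to −0.71 for gene25041 over both ages, −0.099 to 0.049 for gene15271 in translocated 8-day juveniles over shallow planulae, −0.27 to 0.070 for gene25041 in translocated 60-day over 8-day juveniles, −0.63 to −0.47 for gene17590 in shallow adults over shallow planulae, −0.64 to −0.25 for gene25041 in deep adults over deep planulae and −0.17 to 0.057 for gene25041 in shallow adults over control 60-day juveniles. The replicate block, whose numbers are not said to pair the libraries, changed none of 42 calls of the 3 genes (for example −1.22 for gene25041 in planulae).

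Genes called over all alternatives numbered 3751 to 7304 in planulae (5896 in the fit reported), 462 to 3547 in adults (2086), 0 to 95 at 8 days (1), 18 to 1671 at 60 days (608), 1187 to 5454 for the adult minus planula difference (3328), 1 to 184 for the difference between ages (20) and 196 to 1510 over both ages (475).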
